A study of Mus musculus with 8 samples.

Results

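The circadian clock and Rev-erb genes examined here were Arntl, Clock, Npas2, Per1, Per2, Cry1, Nr1d1, Nr1d2, Dbp and Hlf, taken by gene name from the deposited tables. All 10 were found once each among 35275 genes, and all 10 passed the filter on low counts. RNA was sequenced from a mouse epicardial cell line grown in high-glucose medium with fetal bovine serum. The epicardium forms the outer lining of the heart. The KO group, 4 libraries, was transduced with a lentivirus carrying a guide RNA against Hdac3 for CRISPR/Cas9, and the EV group, 4 libraries, with an empty lentiviral vector. Whether the KO cells were 1 clone or a pool, the hour of harvest and any step that set the cells to the same clock phase are not stated in the labels. KO replicate 1 is KO by its title, but its transduction label names the empty vector, so libraries were grouped by title, and the fold changes of the 10 genes and the counts of called genes were also computed without it.

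The clock of a cell is a loop of transcription. Arntl (also called Bmal1) pairs with Clock, or with its relative Npas2, and the pair activates genes with E-boxes, among them the Per and Cry genes, whose proteins then repress the pair. In a second loop the nuclear receptors Nr1d1 and Nr1d2 (Rev-erb alpha and beta) repress Arntl and Npas2 through ROR elements, by recruiting the NCoR corepressor and its deacetylase Hdac3, while the ROR receptors activate through the same elements. Dbp and Hlf encode leucine zipper activators that bind D-boxes and carry the rhythm to output genes. Cultured cells run such clocks too, but out of step with each other unless they are synchronised, and a bulk library averages over all of them. In such libraries fewer cells of a type and less RNA per cell cannot be told apart.

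Library totals lay between 18063745 and 24564892 counts, and a count of 3 corresponded to 0.125 to 0.164 CPM (counts scaled by library size and by TMM factors for library composition). Hdac3 itself stood at 63.2, 56.9, 63.9 and 62.6 CPM in KO replicates 1 to 4, against 60.3, 61.4, 64.0 and 61.7 CPM in EV replicates 1 to 4. Its transcript level overlapped between the groups (log2 fold change −0.0050, adjusted p = 0.956) and so does not check the labels, since an edited gene can still be transcribed. Of the 13 epicardial markers listed, 12 were tested and the list summed to between 5251 and 5397 CPM in KO and between 5376 and 5713 CPM in EV, while Aldh1a2 stood at no more than 0.463 CPM in any library. Hepatocyte markers, a list of 20 genes of which 15 averaged below 1 CPM, summed to 30.5, 42.0, 42.6 and 22.6 CPM in KO replicates 1 to 4, against 16.0 to 18.8 CPM in EV. Cardiomyocyte markers (0 of 4 tested higher, 1 lower) summed to 113 to 130 CPM in KO and 145 to 158 CPM in EV. Most of that sum was Tnnt2, at a mean of 115 CPM in KO and 145 CPM in EV, and the median log2 fold change of the 4 tested was 0.49. Endothelial markers (1 of 3 higher, 2 lower) summed to 19.5 to 21.4 CPM in KO and 26.7 to 29.7 CPM in EV, and macrophage markers (1 of 2 higher, 0 lower) to 9.85 to 11.2 CPM in KO and 6.25 to 7.31 CPM in EV. Of the 12 epicardial markers tested 4 were higher and 5 lower (75.0% called). Their log2 fold changes ran from −0.74 for Tcf21 to 1.66 for Krt8, which the sum of the list does not show. Of all genes tested, 12.6% were higher and 13.4% lower. The part of these markers in the results below was not tested. Because the labels do not state whether the replicates came from separate cultures, p-values cover only the spread between these libraries.

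In KO cells Hlf fell to well under its EV level, Per1, Per2 and Cry1 fell by smaller amounts, and Npas2 rose. Arntl, Clock, Nr1d1, Nr1d2 and Dbp did not pass the test. Thus 5 of the 10 genes were called, 1 higher and 4 lower, at an adjusted p below 0.05 in edgeR's quasi-likelihood test, where 26.0% of the 12801 genes tested were called, 12.6% higher and 13.4% lower. The median log2 fold change of the 10 was −0.081, and that of all genes tested was 0.0050. The same 5 genes were those whose KO and EV libraries did not overlap in CPM, as was the case for 26.5% of all genes tested.

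**Figure D1:**
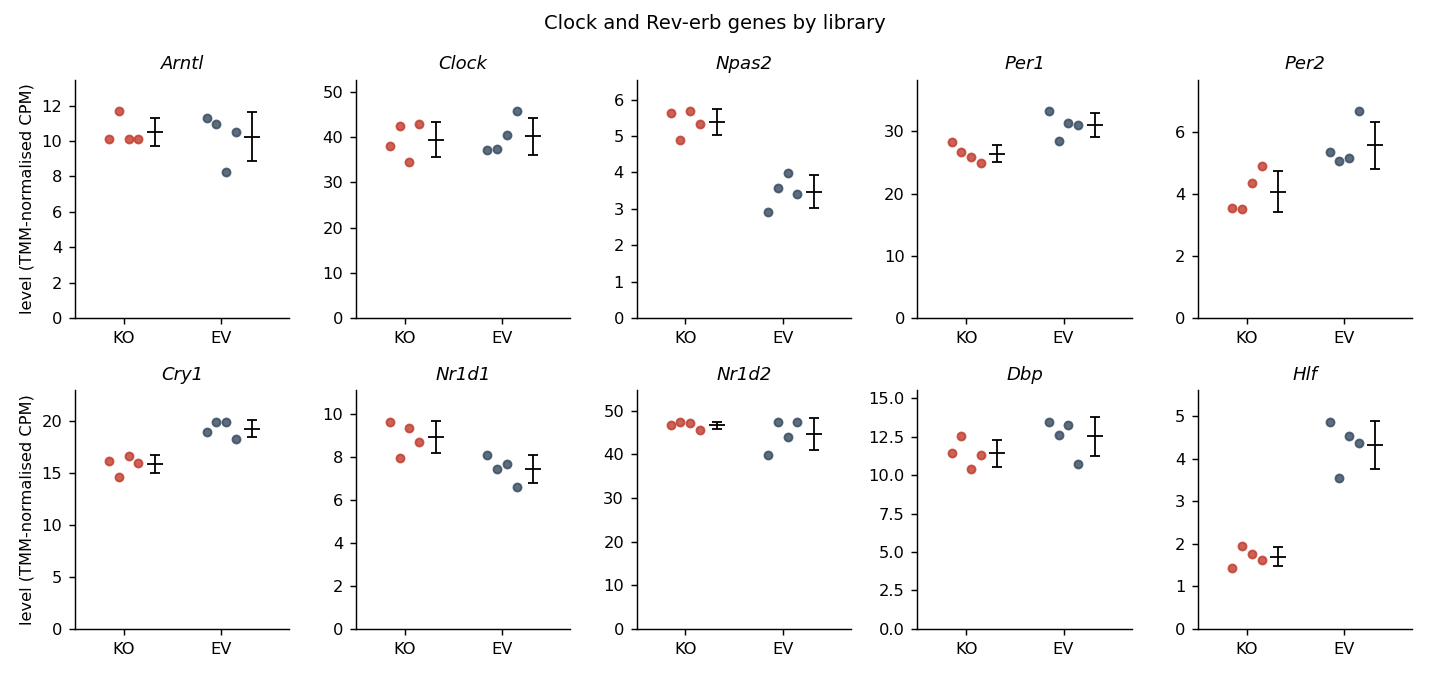
Level of each gene in TMM-normalised CPM (y axis, from 0) in the KO libraries (left, red) and the EV libraries (right, grey-blue). Each point is 1 library, and the bar beside each group is its mean ± SD (n = 4). The groups are apart for Npas2, Per1, Per2, Cry1 and Hlf and overlap for the other members.

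Per unit of transcript length, Nr1d2 was the most abundant of the 10 genes and Hlf the least. In the FPKM values deposited by the authors, Nr1d2 averaged 9.84 ± 0.191 in KO and 9.76 ± 0.856 in EV (SD, n = 4 each). Below it came Dbp, Per1, Cry1 and Clock, with means over the 8 libraries of 6.69, 6.16, 5.83 and 5.31 FPKM, and the ranges of each neighbouring pair of these overlapped. Arntl (3.58 FPKM) and Nr1d1 (3.002 FPKM) followed and overlapped as well. Npas2 (1.04 FPKM), Per2 (0.830 FPKM) and Hlf (0.537 FPKM) formed the low end. Gaps without overlap separated Nr1d2 from Dbp, Clock from Arntl, and Nr1d1 from Npas2. At the low end the order of the means turned between the groups. The ranges of Npas2 and Per2 were apart in KO but overlapped in EV (0.693 to 0.950 and 0.892 to 1.17 FPKM). Npas2 averaged 1.248 ± 0.0811 FPKM in KO, above Per2 at 0.687 ± 0.110 FPKM, whereas in EV Npas2 stood at 0.834 ± 0.108 FPKM and Per2 at 0.973 ± 0.133 FPKM (SD, n = 4 each).

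**Figure D2:**
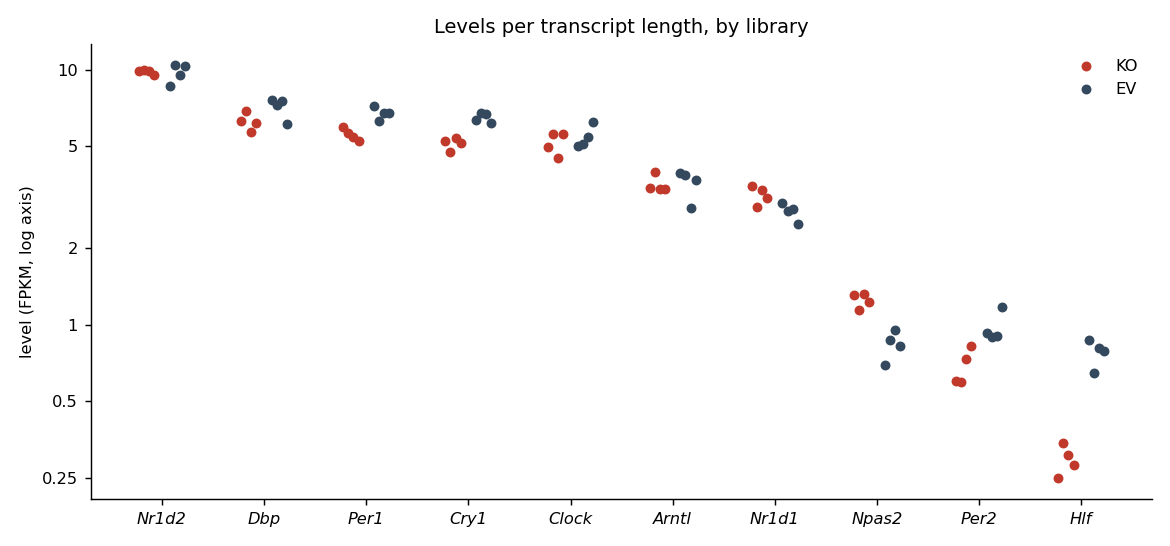
Deposited FPKM (y axis, log scale) of the 10 genes, ordered by their mean over 8 libraries, with KO libraries in red at the left of each gene and EV libraries in grey-blue at the right. Levels run between 0.2496 FPKM for Hlf in a KO library and 10.5 FPKM for Nr1d2 in an EV library.

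Among the activators of the loop, Npas2 rose while Arntl and Clock showed no detectable change. Npas2 (ENSMUSG00000026077, mm10 chromosome 1, 39193731 to 39363234, plus strand) had 5.63, 4.90, 5.69 and 5.32 CPM in KO replicates 1 to 4, against 2.90, 3.58, 3.98 and 3.42 CPM in EV replicates 1 to 4. Every KO library lay above every EV library. The log2 fold change was 0.63 (SE 0.140, adjusted p = 0.00242), a level 54.4% higher in KO, and the gene passed under each of the 19 alternative settings. These values rest on 100 to 132 counts per library in KO and 53 to 86 in EV.

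Arntl (ENSMUSG00000055116, chromosome 7, 113207465 to 113314122, plus strand), the partner of both Clock and Npas2, had 10.1, 11.7, 10.1 and 10.1 CPM in KO replicates 1 to 4, against 11.3, 10.97, 8.24 and 10.5 CPM in EV replicates 1 to 4. The groups overlapped, with KO replicate 2 the highest library of KO and EV replicate 3 the lowest of EV. Its log2 fold change was 0.037 (95% interval −0.19 to 0.27, adjusted p = 0.838), and the sign turned with the scaling and with the libraries left out. Clock (ENSMUSG00000029238, chromosome 5, 76212177 to 76304548, minus strand) had 37.9, 42.4, 34.5 and 42.8 CPM in KO and 37.1, 37.3, 40.3 and 45.7 CPM in EV. Its log2 fold change was −0.026 (95% interval −0.19 to 0.14, adjusted p = 0.842), and its sign, too, turned in the fits without EV replicate 4 and without KO replicate 3. The FPKM ratio of Npas2 to Clock, a ratio within each library that does not depend on library scaling, was 24.4 ± 3.98% in KO and 15.4 ± 2.16% in EV (SD, n = 4 each). The lowest KO library stood at 20.4% and the highest EV library at 17.4%. This ratio and those below were chosen after the values were seen and are given without a test.

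The repressors Per1, Per2 and Cry1 were all lower in KO, by 14.9, 26.2 and 17.8% in the fit. Per1 (ENSMUSG00000020893, chromosome 11, 69095217 to 69109960, plus strand) had 28.2, 26.6, 26.0 and 24.9 CPM in KO replicates 1 to 4, against 33.3, 28.5, 31.3 and 31.1 CPM in EV replicates 1 to 4. The gap between the groups was narrow, with EV replicate 2 just above KO replicate 1. The log2 fold change was −0.23 (SE 0.0679, adjusted p = 0.0163), and without KO replicate 4 the adjusted p was 0.0611.

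Cry1 (ENSMUSG00000020038, chromosome 10, 85131702 to 85185054, minus strand), which represses the activator pair most directly, had 16.1, 14.6, 16.6 and 15.9 CPM in KO and 19.0, 19.9, 19.9 and 18.2 CPM in EV. No KO library reached the lowest EV library. Its log2 fold change was −0.28 (SE 0.0772, adjusted p = 0.0106), and it passed whichever single library was left out.

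Per2 (ENSMUSG00000055866, chromosome 1, 91415982 to 91459324, minus strand) had 3.56, 3.53, 4.35 and 4.91 CPM in KO and 5.37, 5.07, 5.18 and 6.69 CPM in EV. KO replicate 4 came close to EV replicate 2, and EV replicate 4 was the highest of the 8 libraries. The log2 fold change was −0.44 (SE 0.148, adjusted p = 0.0355). The call was lost without EV replicate 4 (−0.34, adjusted p = 0.120), KO replicate 1 (−0.38, adjusted p = 0.104), KO replicate 2 (−0.37, adjusted p = 0.0969) or KO replicate 3 (−0.47, adjusted p = 0.0540), and in FPKM with a pseudocount of 1 (−0.23, adjusted p = 0.0692) or 0.1 (−0.45, adjusted p = 0.0716).

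The calls of the 3 repressors were also recomputed without KO replicates 2 and 3, which had the highest summed CPM of hepatocyte markers. Without these 2 libraries the log2 fold changes were −0.22 for Per1, −0.38 for Per2 and −0.26 for Cry1, of similar size, but with adjusted p of 0.106, 0.195 and 0.0752 none was called. Npas2 at 0.65 (adjusted p = 0.0201) and Hlf at −1.49 (adjusted p = 0.000338) were called without them.

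**Figure D3:**
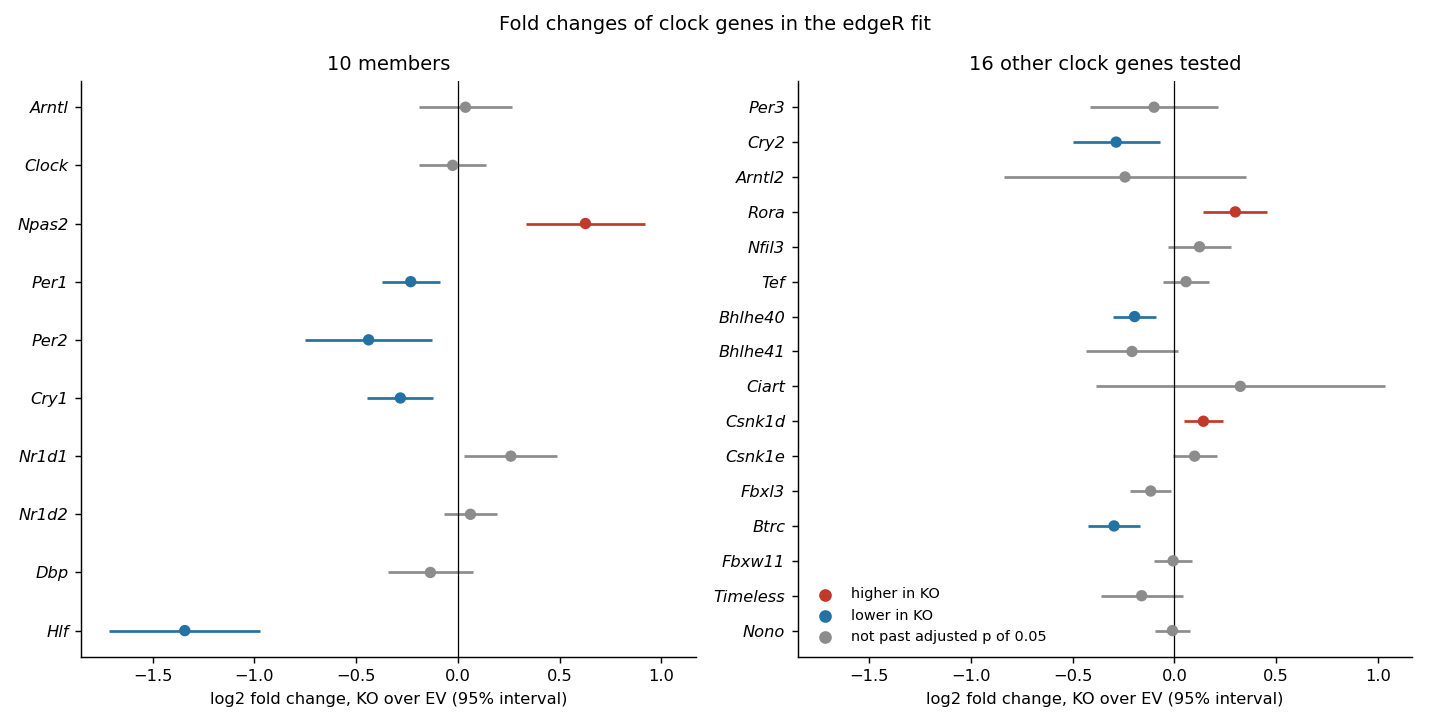
Log2 fold change of KO over EV (x axis) with its 95% interval for the 10 members (left) and the 16 other clock genes tested (right), with genes higher in KO in red, lower in blue and not called in grey. Hlf at −1.34 is farthest from 0 of the genes drawn, and the intervals of Arntl, Clock, Nr1d2 and Dbp span 0.

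For the Rev-erb genes, whose proteins act through Hdac3, no change passed the test. Nr1d1 (ENSMUSG00000020889, chromosome 11, 98767932 to 98775333, minus strand) had 9.66, 7.98, 9.36 and 8.69 CPM in KO replicates 1 to 4, against 8.11, 7.43, 7.68 and 6.60 CPM in EV replicates 1 to 4. Apart from KO replicate 2, which fell below EV replicate 1, the KO libraries were above the EV libraries. The log2 fold change was 0.26 (95% interval 0.032 to 0.49), with an unadjusted p of 0.0276 and an adjusted p of 0.0878 over all genes. It was positive and not called in each of the 19 alternatives.

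The 3′ end of Nr1d1 lies opposite that of Thra, a thyroid hormone receptor gene on the plus strand, and in the deposited table the genes overlap by 1075 bases. In GENCODE M21, an annotation of the same build, 263 of the 3077 exon bases of Nr1d1 (8.55%) are also exon bases of Thra. No source used here says whether counting was strand-specific, so reads of the shared part cannot be told apart. Thra rose in KO, with 87.8 ± 2.56 CPM in KO and 68.1 ± 6.10 CPM in EV (SD, n = 4 each, log2 fold change 0.37, SE 0.0583, adjusted p = 9.78e-05). The ratio of Nr1d1 to Thra in FPKM was 9.16 ± 0.835% in KO and 9.88 ± 0.686% in EV, and the groups overlapped. The part of the Thra reads in the Nr1d1 values was not tested.

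Nr1d2 (ENSMUSG00000021775, chromosome 14, 18204054 to 18239127, minus strand), the other Rev-erb gene, overlaps no gene in the deposited table. It had 46.9, 47.4, 47.1 and 45.6 CPM in KO and 39.8, 47.5, 44.1 and 47.4 CPM in EV. The KO libraries lay close together inside the range of the EV libraries. Its log2 fold change was 0.062 (95% interval −0.067 to 0.19, adjusted p = 0.5003).

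Of the D-box activators, Hlf fell and Dbp did not pass. Hlf (ENSMUSG00000003949, chromosome 11, 90336536 to 90390895, minus strand) had 1.43, 1.96, 1.77 and 1.62 CPM in KO replicates 1 to 4, against 4.88, 3.54, 4.54 and 4.37 CPM in EV replicates 1 to 4. The highest KO library, replicate 2, stood below the lowest EV library, also replicate 2, and the groups were apart. The log2 fold change was −1.34 (SE 0.177, adjusted p = 1.28e-05), a level 2.54-fold lower in KO. The gene was called under each of the 19 alternatives, and its change was −0.46 on the log2(FPKM + 1) scale, where the pseudocount exceeds the gene's own level. Counts behind these values were 27 to 41 per library in KO and 81 to 98 in EV.

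Hlf and Dbp are both abundant in liver as well as in other tissues, and hepatocyte markers differed between the groups. Alb, the albumin gene, stood at 6.47, 13.0, 11.8 and 4.66 CPM in KO replicates 1 to 4, against 1.79 to 3.73 CPM in EV, and 6 of the 10 hepatocyte markers tested were higher and 1 was lower. Without KO replicates 2 and 3 the log2 fold change of Hlf was −1.49, as given above. The KO libraries kept in that fit, replicates 1 and 4, still summed to 30.5 and 22.6 CPM of hepatocyte markers, against 16.0 to 18.8 CPM in EV. The part of these markers in the Hlf values was not tested.

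Dbp (ENSMUSG00000059824, chromosome 7, 45705088 to 45710155, plus strand) had 11.4, 12.5, 10.4 and 11.3 CPM in KO, against 13.5, 12.6, 13.3 and 10.7 CPM in EV. EV replicate 4 lay among the KO libraries and the groups overlapped. Its log2 fold change was −0.14 (95% interval −0.34 to 0.072, adjusted p = 0.344). Dbp overlaps Sphk2, a sphingosine kinase gene on the opposite strand, by 689 bases in the table, and 539 of its 2993 exon bases in GENCODE M21 (18.0%) are shared. Sphk2 stood at 25.7 ± 1.80 CPM in KO and 22.8 ± 1.41 CPM in EV (SD, n = 4 each, log2 fold change 0.17, adjusted p = 0.0911), the opposite sign to that of Dbp. The third gene of this family, Tef, is given with the other clock genes below, and the FPKM ratio of Hlf to Tef was 2.22 ± 0.335% in KO and 5.91 ± 0.898% in EV, with no overlap between the groups.

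**Figure D4:**
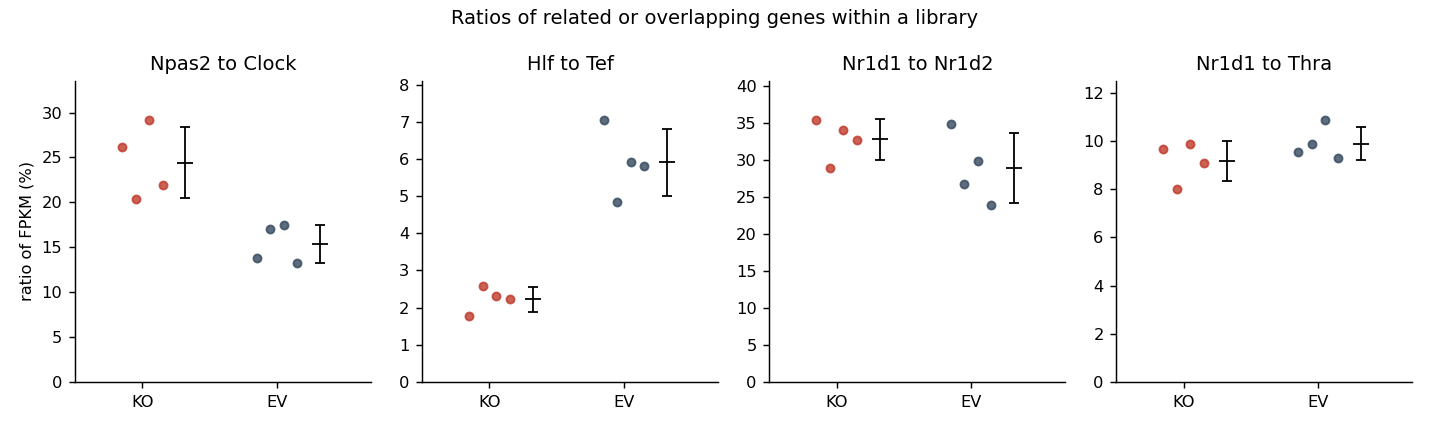
FPKM of a gene as a percentage of that of a related or overlapping gene in the same library (y axis, from 0), with KO at the left and EV at the right of each panel, points for libraries and bars for mean ± SD (n = 4). The groups are apart for Npas2 to Clock and for Hlf to Tef, and overlap for Nr1d1 to Nr1d2 (28.9 to 35.3% in KO, 23.8 to 34.9% in EV) and for Nr1d1 to Thra.

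The spread of the members between libraries of a group was taken from edgeR, which draws each gene's estimate toward the trend of genes at its level. Closeness to that trend is therefore partly built in. The biological coefficient of variation is the part of the spread beyond counting noise as edgeR estimates it. It was 5.59% for Nr1d2, 5.82% for Per1 and 6.06% for Cry1, below the median of 6.62% over all genes tested. The other members lay above that median, up to 10.7% for Per2 and 10.9% for Hlf. Of the 10 genes, 3 (Arntl, Clock and Per2) lay above the trend that genes of their level followed, Clock at 7.35% against a trend of 6.07%. Arntl (8.713% against 8.708%) and Per2 (10.71% against 10.64%) exceeded it only slightly.

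The promoters of 9 of the 10 genes had an entry in the RefSeq promoter table of build GRCm38.p6, with 13 windows in all because Arntl, Clock and Per1 have several starts. A window holds 250 bases before a start and 50 from it on. On both strands, 4 kinds of site were searched: the E-box CACGTG, the ROR element as TAGGTCA or TGGGTCA, the D-box as TTATGTAA or TTACGTAA, and the cyclic AMP element CRE as TGACGTCA. E-boxes of this form were in 2 windows, those of Cry1 and Per1, and in 7.15% of all 32851 windows of the table. A ROR element was in 1 window, the second start of Arntl, against 6.45% of all windows, a CRE in 1, that of Hlf, against 1.79%, and a D-box in 0 of the 13 windows, against 1.06%. The matches are shown with the matched letters in capitals and 5′ to 3′ on the strand of the gene. E-boxes and ROR elements belong to the loop as described above, whereas the CRE matched for Hlf does not.
Arntl, chr7:113207530-113207559, plus strand: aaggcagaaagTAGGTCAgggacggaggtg
Cry1, chr10:85185097-85185126, minus strand: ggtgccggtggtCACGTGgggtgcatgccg
Per1, chr11:69098771-69098800, plus strand: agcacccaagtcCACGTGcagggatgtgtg
Hlf, chr11:90390908-90390937, minus strand: ggtgcgggcccTGACGTCActcttgtcagg
The Arntl match lay at bases 31 to 37 from its start, the Cry1 match at −60 to −55, the Per1 match at −166 to −161 and the Hlf match at −9 to −2. The Per1 start in question lies inside the gene as the deposited table draws it. A match is a description of the sequence and not a measured binding site.

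Among the other clock genes, a list of 18, 16 were tested, 2 rose and 3 fell (31.2% called, beside 26.0% of all genes), with a median log2 fold change of −0.055. Rorb was at 0 counts in every library, and Fbxl21 was below the filter with at most 10 counts in a library. Rora, a ROR receptor, which activates through the elements that the Rev-erb proteins repress, had 19.9 ± 0.447 CPM in KO and 16.1 ± 0.940 CPM in EV (SD, n = 4 each, log2 fold change 0.30, SE 0.0753, adjusted p = 0.00612). All KO libraries lay above all EV libraries.

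Cry2, the second cryptochrome, had 9.15 ± 0.766 CPM in KO and 11.2 ± 0.942 CPM in EV (−0.29, SE 0.102, adjusted p = 0.0451), beside the fall of Cry1. Per3 was not called (−0.10, adjusted p = 0.666). Bhlhe40, a repressor at E-boxes, fell (−0.20, SE 0.0499, adjusted p = 0.00668), while its relative Bhlhe41 stood at −0.21 (adjusted p = 0.167). Btrc, which encodes a subunit of the ligase that marks Per proteins for destruction, fell with 33.2 ± 1.65 CPM in KO and 40.7 ± 1.86 CPM in EV (−0.30, SE 0.0609, adjusted p = 0.00120). Csnk1d, a kinase that phosphorylates Per proteins, rose by 0.14 on the log2 scale (SE 0.0452, adjusted p = 0.0260), and its relative Csnk1e stood at 0.099 (adjusted p = 0.173). Nfil3, the repressor at D-boxes, and Tef, the third D-box activator, were at 0.12 (adjusted p = 0.235) and 0.057 (adjusted p = 0.477).

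These calls differed in how they held. Bhlhe40 and Btrc passed under each of the 19 alternatives. Cry2 lost its call without any 1 library other than EV replicate 3 (adjusted p 0.0535 to 0.145), in limma-voom (adjusted p = 0.0500) and in unfiltered FPKM, and Csnk1d without any 1 library other than EV replicates 1 and 2 (adjusted p 0.0502 to 0.0707), with library totals alone and in FPKM. Rora kept its call without any single library and lost it in FPKM (adjusted p from 0.0999 to 0.114) and without KO replicates 2 and 3 (adjusted p = 0.0626). With KO replicates 2 and 3 left out, 0 of the 16 rose in edgeR and 2 fell.

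Of 5 genes tested of the corepressor complex through which the Rev-erb proteins act, 2 rose and 0 fell, with a median of −0.0050, where 12.6% of all genes tested rose and 13.4% fell. Tbl1x (0.22, SE 0.0473, adjusted p = 0.00173) and Tbl1xr1 (0.20, SE 0.0641, adjusted p = 0.0260) were higher in KO, and Ncor1 (−0.11, adjusted p = 0.209), Gps2 (−0.10, adjusted p = 0.335) and Hdac3 were not called. Tbl1x had 345 ± 11.6 CPM in KO and 296 ± 17.1 CPM in EV and passed under each of the 19 alternatives, while the count of rises was 1 without KO replicates 2 and 3 and also when any 1 library other than EV replicate 4, KO replicate 3 and KO replicate 4 was left out, with library totals alone and in FPKM under each of the 3 settings.

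Of 7 genes that cycle in many tissues, 0 rose and 1 fell (14.3% called, beside 26.0% of all genes tested), with a median of −0.093. Usp2, a ubiquitin protease, had 11.3 ± 0.920 CPM in KO and 14.3 ± 0.775 CPM in EV (−0.33, SE 0.0911, adjusted p = 0.0108). It overlaps Rnf26 on the opposite strand, which held up to 1222 counts in a library, and without KO replicates 2 and 3, in a fit with fewer libraries, it stood at −0.31 (adjusted p = 0.0726). Without EV replicate 1, and likewise with library totals alone, 3 of the 7 fell, and without KO replicate 2 or KO replicate 4, 1 rose. Without KO replicates 2 and 3, 0 rose and 0 fell in edgeR.

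Of 9 genes known as Rev-erb targets outside the clock, 3 were tested, 2 rose and 1 fell, with a median of 0.17. Of all genes tested, 12.6% rose and 13.4% fell, and a list with 3 tested genes is too short to compare with these shares. Cdkn1a, an inhibitor of cyclin-dependent kinases, had 39.6 ± 0.692 CPM in KO and 23.9 ± 1.55 CPM in EV (0.72, SE 0.0633, adjusted p = 6.13e-08). Insig2, which retains sterol sensors in the endoplasmic reticulum, stood at 0.17 (SE 0.0581, adjusted p = 0.0430), and its call was lost in 12 of the 19 alternatives. The chemokine Ccl2 fell (−0.37, SE 0.0801, adjusted p = 0.00176). The other 6, mostly genes of liver and fat, were below the filter. The count of rises was 1 without KO replicates 2 and 3, KO replicate 1 or KO replicate 3. It was also 1 with library totals alone, in log2(FPKM + 1) and in log2(FPKM + 0.1). Without EV replicate 2 it was 3, and each of these fits had 1 fall. When any 1 EV library or KO replicate 4 was left out, Apoa1, also a hepatocyte marker, passed the filter and 4 genes were tested. A count of 2 rises in those fits can therefore include Apoa1 in place of Insig2.

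For the 5 members that were called, the genes with the most similar profile over the 8 libraries were sought among 10202 others of at least 5 CPM. Similarity was measured by the root mean square distance of centred log2(CPM + 0.5). The added 0.5 narrows the differences of genes at low levels, such as Hlf, more than those of genes at higher levels. All such profiles share the libraries and the group difference. Nearest to Hlf were Apcdd1, Tacc1 and Sfrp1, at distances of 0.114, 0.125 and 0.135 on the log2 scale. For Npas2 they were Steap3, Cd63 and Plin2 (0.0680, 0.0789 and 0.0805), and for Cry1 they were Mgst1, Golga7 and Aplp1 (0.0287, 0.0382 and 0.0402). Tcea3, Mxi1 and Slc25a23 were nearest to Per1 (0.0361, 0.0444 and 0.0455), and Kctd6, Mettl8 and Ripk2 to Per2 (0.0805, 0.0877 and 0.0997). No clock gene of the second list was among these 15 neighbours. With 10202 candidates, few of them listed clock genes, this absence was likely beforehand. It does not tell whether clock genes moved together, and the members themselves were not candidates.

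**Figure D5:**
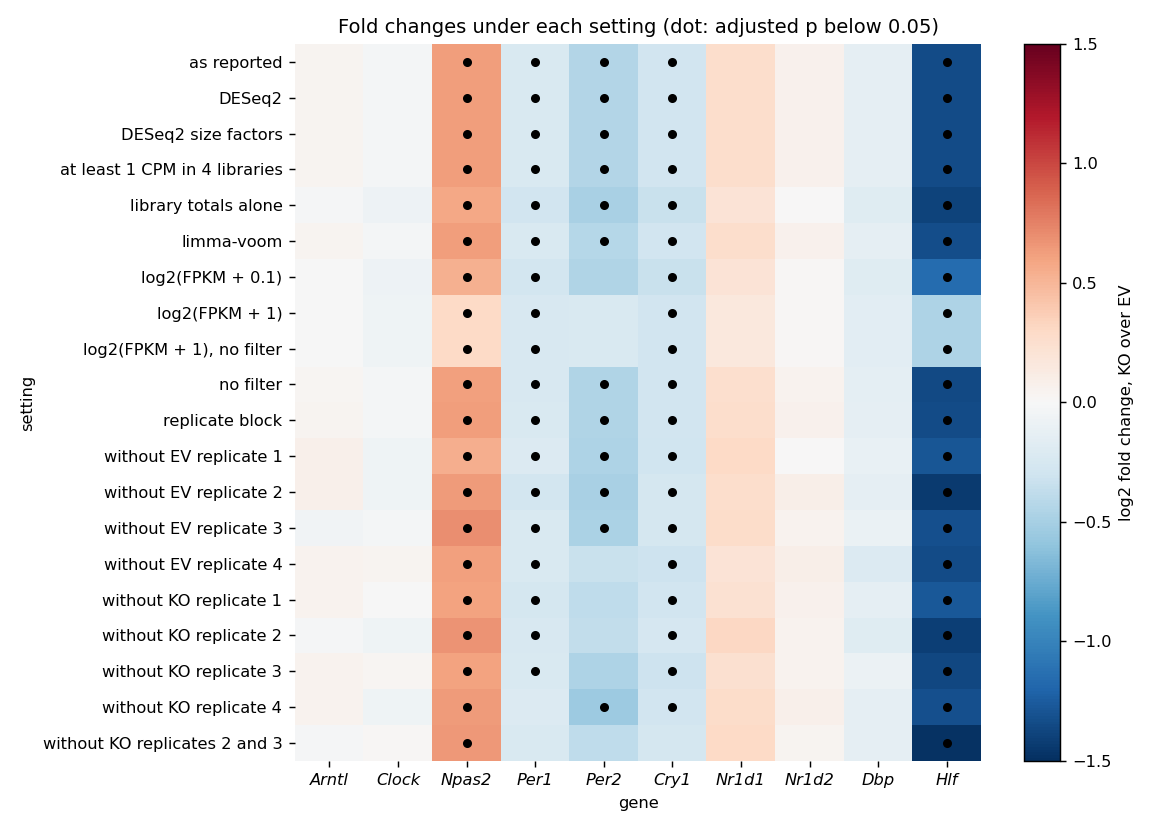
Log2 fold change of KO over EV for each of the 10 genes (columns) as reported and under each alternative setting (rows), with red for higher and blue for lower in KO. A dot marks an adjusted p below 0.05. Npas2 and Hlf have a dot in every row, and Arntl, Clock, Nr1d1, Nr1d2 and Dbp in none.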

How the data were processed

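The authors deposited raw counts per gene and FPKM values for the same 35275 genes, per the file headers. The deposited FPKM equal the counts divided by listed gene length and library total for 100% of nonzero values within 1e-06, with no correction for composition. Build mm10 and the tool DESeq 1.6.3 appear in the submitters' processing notes. The sources used here do not give the aligner, counter, annotation release or strandedness.

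KO was tested against EV on the deposited counts in R 4.3.3 with edgeR 4.0.16: TMM factors, filterByExpr (minimum count 10, minimum total 15), quasi-likelihood F test, two-sided, Benjamini-Hochberg over 12801 genes, threshold 0.05. The SE is the log2 fold change over the square root of F, and 95% intervals use the fit's degrees of freedom. The fit was tested on simulated data, with 50 changed genes at each size of change. It recovered 50% of 1.25-fold, 80% of 1.5-fold, 88% of 2-fold and 100% of 4-fold changes. Of 12601 unchanged genes 10 were called. Small changes can thus go uncalled. The simulation changed a far smaller share of the 12801 genes than the 26.0% called in the data. The adjustment of p depends on that share, so the recovered percentages do not carry over directly to the reported fit. Replicate pairs differed by more than sampling (chi-square over its degrees of freedom 4.01 to 13.2), so none was counted as a duplicate.

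Alternatives were DESeq2 1.42.0, limma-voom (limma 3.58.1), other scalings and filters, limma on log2 FPKM, a block for replicate number, leaving out each library, and KO replicates 2 and 3 left out. Their use for genes other than the 10 and the other clock genes was decided after the values were seen. The members, gene lists and tests were chosen with earlier results of these data known. Named were all members, from each list other than the cell type markers up to 6 called genes by adjusted p, and 3 genes of similar profile per called member. Uncalled list genes named beside these were chosen after their values were seen. Some genes of the lists are not reported here and were left out of the list counts, not of the fits.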

Additional observations from a re-analysis of the deposited data

Results flagged for a closer look

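Among 52 groups of 4 libraries of the members and other clock genes tested, 1 held a library that stood apart from the other 3, and chance gives such a library in about 1 in 20 groups. Arntl was at 11.7 CPM in KO replicate 2, against 10.1 CPM in each of the other KO libraries.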

How the results depend on the processing

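Of the 10 members, 1 was higher under each of the 19 alternatives, and 4 or 3 were lower in all but the fit without KO replicates 2 and 3, where 1 was lower (3 to 4 with single libraries left out). Of the other clock genes, 1 was higher with library totals alone, 0 in log2(FPKM + 1), log2(FPKM + 0.1), FPKM without a filter and without KO replicates 2 and 3, and, with single libraries left out, 1 to 2 were higher and 2 to 3 lower. Over all genes, 1039 were higher with library totals alone (and 2414 lower), beside 1613 higher and 1711 lower with TMM factors, 896 in log2(FPKM + 1), 897 in log2(FPKM + 0.1) and 766 in FPKM without a filter. Without KO replicates 2 and 3, 880 were higher and 1094 lower, with fewer samples in the fit. With single libraries left out, 1239 to 1584 were higher and 1382 to 1775 lower. The lowest of both counts came without KO replicate 1, the library whose title and transduction label differ. In that fit 1 member was higher and 3 were lower, with Per2 not called. Arntl changed sign with library totals alone (−0.014), in FPKM (−0.0068 under each of the 3 settings) and without KO replicates 2 and 3 (−0.017), and ranged over −0.056 to 0.078 with single libraries left out. Clock was at 0.013 without KO replicates 2 and 3 and ranged over −0.069 to 0.043 with single libraries left out. The cause of these changes was not tested. With the replicate number as a block, 1 member was higher and 4 were lower, and 1879 and 1858 of all genes. Of the 7 genes that cycle in many tissues, 1 was higher and 3 were lower with this block. Same-numbered libraries deviated together (correlation over 0.1) in 3 of 4 pairs, with −0.0703 in the pair of replicates 2. Among libraries of different number, KO replicate 2 with EV replicate 4 (0.162) and KO replicate 3 with EV replicate 2 (0.149) did so too. The remaining pairs of different number were at 0.0841 or below. No label says that a number marks a shared culture or day, so the numbers were not taken to pair the libraries. Counts of 27 to 41 for Hlf in KO and 53 to 86 for Npas2 in EV limit the precision of those folds.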

Other observations

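Per1 is also a gene that glucocorticoids and CREB induce directly. Of 6 CREB response genes tested, 3 rose and 0 fell, with a median log2 fold change of 0.31, where 12.6% of all genes tested rose and 13.4% fell. Fos, a subunit of AP-1, had 10.1 ± 1.11 CPM in KO and 6.75 ± 0.357 CPM in EV (SD, n = 4 each, 0.58, SE 0.110, adjusted p = 0.000546). The nuclear receptor gene Nr4a1 (0.37, SE 0.0847, adjusted p = 0.00276) and the kinase gene Sik1 (0.25, SE 0.0654, adjusted p = 0.00827) rose too, and Crem was at −0.22 (adjusted p = 0.120). Without KO replicates 2 and 3, 2 of these rose.

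Of 8 glucocorticoid response genes, 7 were tested, 3 rose and 1 fell, with a median of 0.23, beside the same shares of all genes. The metallothionein gene Mt2 had 1026 ± 113 CPM in KO and 630 ± 23.0 CPM in EV (0.70, SE 0.0623, adjusted p = 7.36e-08). Mt1 (0.34, SE 0.0733, adjusted p = 0.00178) and the kinase gene Sgk1 (0.43, SE 0.0801, adjusted p = 0.000504) rose and Errfi1, an inhibitor of the EGF receptor, fell (−0.22, SE 0.0671, adjusted p = 0.0193), while Fkbp5 (−0.042, adjusted p = 0.623) and Klf9 (0.0029, adjusted p = 0.977) were not called. Without KO replicates 2 and 3, 3 rose and 0 fell.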
